A study of Mus musculus with 4 samples.

Results

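A list of 50 immediate-early and AP-1 activation genes was examined in Treg cells sorted from the large intestine (LI) of mice with and without Setd2. The members were found by gene symbol among the 53379 genes of the expression table, and all 50 were present. They comprise the AP-1, EGR, NR4A, IER, KLF, DUSP, GADD45 and ZFP36 families together with *Myc*, *Crem*, *Per1*, the surface molecules *Cd69* and *Cd83* and several RGS, BTG and Sprouty genes. The list names families and single genes and sets no threshold on a measured value, but it was drawn up with earlier results of these data known.

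All mice were C57BL/6 adults at steady state that carried the *Foxp3* Cre-YFP allele, in which the *Foxp3* locus drives Cre and a yellow fluorescent protein, so that deletion is directed to Treg cells. Both copies of *Setd2* were floxed in KO mice (*Foxp3* Cre-YFP with *Setd2* f/f). Control mice (*Foxp3* Cre-YFP with *Setd2* f/+) carried 1 floxed and 1 intact copy, so the controls also lose 1 copy in Treg cells. Cells positive for CD3, CD4 and YFP were sorted after enzymatic digestion of the tissue. Each group had 2 libraries, and each library was a pool of 2 to 3 mice. Values are FPKM, fragments scaled by transcript length and by the number of fragments mapped, which allows levels to be compared between genes of different length. Setd2 is the methyltransferase that places trimethylation on lysine 36 of histone H3 in the bodies of transcribed genes.

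Immediate-early genes are transcribed within minutes of a stimulus without the need for new protein. In T cells the antigen receptor and cytokine receptors act through ERK, p38 and JNK kinases, calcium and cAMP on factors already bound at their promoters, such as SRF and CREB. Their products are transcription factors such as Fos, Jun, Egr1 and Nr4a1, and also inhibitors that end the response, such as the DUSP phosphatases and the ZFP36 proteins that direct the decay of short-lived mRNAs. The same genes also respond to mechanical, thermal and enzymatic stress, and many are highly expressed in tissue-resident T cells.

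The 4 libraries shared a common distribution of FPKM, in which 2172 of the 5000 highest ranks held 1 value in all libraries. A change in total mRNA per cell therefore cannot be seen. The depth of the libraries is unknown, because FPKM does not keep it. The targeted gene *Setd2* had 38.2 and 27.4 FPKM in the control libraries and 26.3 and 36.3 FPKM in the KO libraries (log2 fold change of FPKM + 1, KO over control, -0.06, adjusted p = 0.927 by limma). This value covers the whole gene and does not check the deletion. *Cd3e*, *Cd4*, *Il2ra* and *Ctla4* were present in all libraries, and the 7 Treg markers summed to 4111 to 4627 FPKM in control and 4865 to 5085 FPKM in KO. Within this list *Ctla4* was called higher, with 1593 and 1701 FPKM in control and 2160 and 2310 FPKM in KO (log2 fold change 0.44). It was the only one of the 7 with both KO libraries above both controls, and the separation of the sums rested on it. *Ikzf2*, which encodes Helios, was called lower (-0.37), and *Il2ra* was below control in both KO libraries without being called. *Foxp3* itself was listed at only 2.62 to 5.61 FPKM and was not tested. Among markers of other cells, those of CD8 T and NK cells summed to 2.51 to 3.61 FPKM and those of mast cells to at most 1.11 FPKM, so both were near 0. Myeloid markers summed to 199 and 215 FPKM in control and 196 and 247 FPKM in KO, and B and plasma cell markers to 123 and 169 FPKM in control and 121 and 175 FPKM in KO, most of it *Jchain*. The myeloid and B cell lists did not separate the groups. The epithelial list summed to 28.9 and 30.9 FPKM in control and 20.4 and 21.3 FPKM in KO, nearly all of it *Epcam*, with the other 5 genes below 1 FPKM in each library. The stromal list went the other way, with 37.0 and 40.2 FPKM in control and 54.9 and 47.9 FPKM in KO. Most of it was *Pecam1*, which was called higher (log2 fold change 0.36). *Col1a1*, *Col3a1* and *Cdh5* were below 1 FPKM in each library, and *Dcn* lay between 1.21 and 4.47 FPKM. The part of these other cells in the results was not tested, and in bulk RNA fewer cells of a type and less RNA per cell cannot be told apart.

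Many of the members were highly expressed in LI Treg cells. The median FPKM of the members tested was 71.4 and 95.6 in the control libraries and 83.5 and 65.7 in the KO libraries, compared with 22.7 to 22.8 for all genes tested. The highest level was that of *Rgs1*, a regulator that shortens G-protein signaling, with 4709.95 FPKM in control 1 and KO 1 and 4437 FPKM in control 2 and KO 2. *Crem*, *Dusp1*, *Junb*, *Ppp1r15a* and *Cd69* followed with group means of 1252 to 2885 FPKM. At the other end, 4 members were not tested because neither group had a mean above 5 FPKM. *Fosl1* lay between 0.71 and 1.97 FPKM, *Egr3* between 0.07 and 0.56, *Ier3* between 3.13 and 6.87 and *Spry2* between 2.28 and 4.95. Their groups overlapped except for *Spry2*, an inhibitor of receptor tyrosine kinase signaling, which was 2.28 and 3.38 FPKM in control and 3.97 and 4.95 FPKM in KO.

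**Figure D1:**
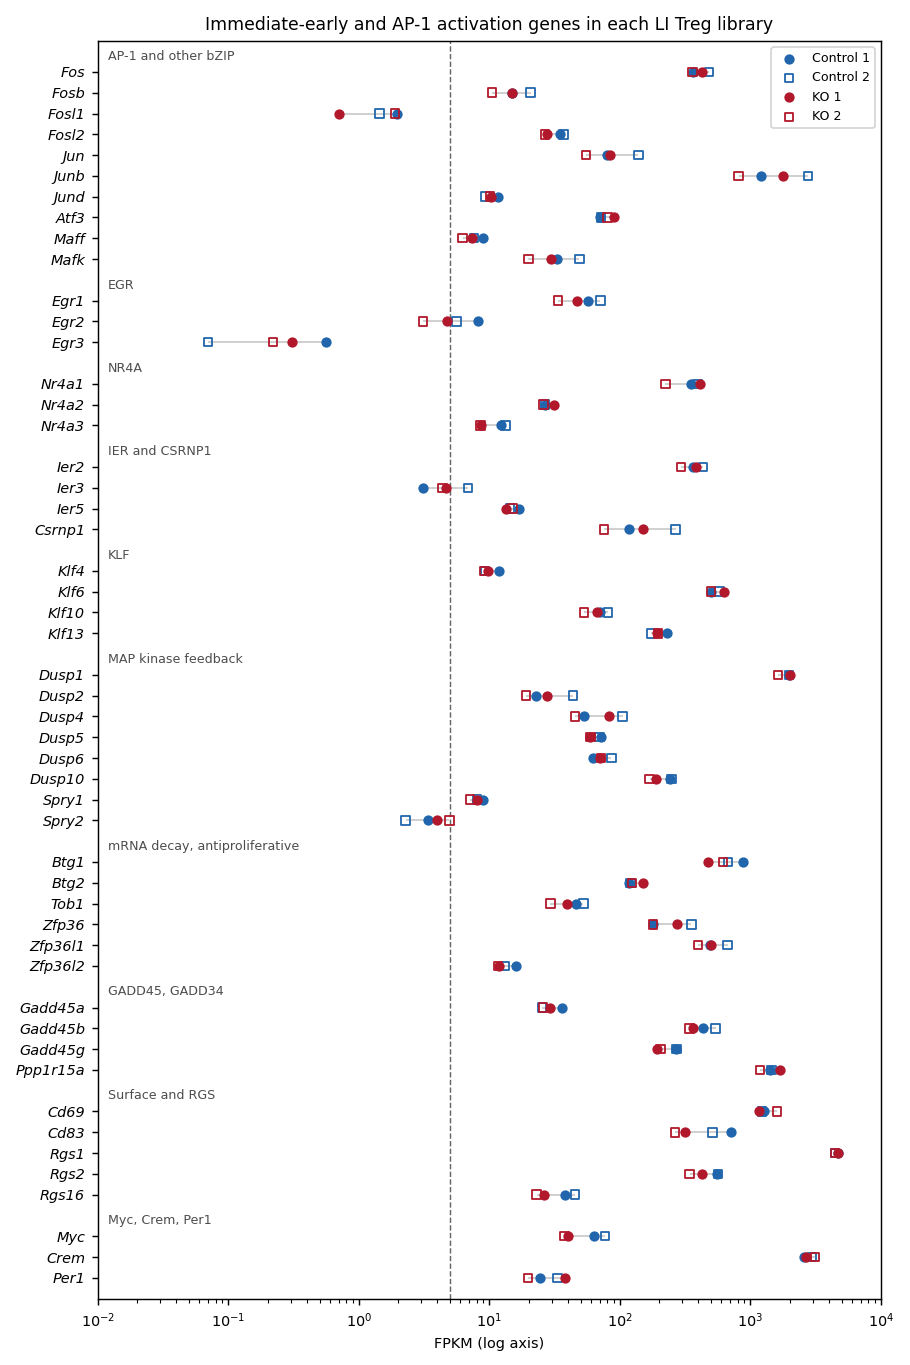
FPKM of the 50 genes in each library on a log axis, grouped by family, with control in blue and KO in red, circles for replicate 1 and squares for replicate 2. The dashed line marks 5 FPKM, and the levels run from 0.07 FPKM for *Egr3* in control 2 to 4709.95 FPKM for *Rgs1*.

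Comparing KO with control asks whether these activation genes depend on Setd2 in LI Treg cells. Of the 46 members tested, 14 were lower in KO, none was higher and 32 were not called, at the unadjusted p of 0.05 that the methods of the study set as threshold, here with limma. The 14 are 30.4% of the members, while 7.57% of all 7639 genes tested were called lower and 8.61% were called higher. None of the 46 passed an adjusted p of 0.05 by the Benjamini-Hochberg method, which 0.589% of all genes tested did, and the smallest adjusted p of a member was 0.0565. Both KO libraries were below both control libraries for 19 members, or 41.3%, compared with 22.9% of all genes tested. Both KO libraries were above for 2 members, or 4.35%, compared with 24.2% of all genes tested, and the groups of the other 25 members overlapped.

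The difference was spread over the list and was small for most members. The log2 fold change (KO over control) was negative for 39 of the 46 members, positive for 6 and 0 for *Rgs1*, and its median was -0.28, compared with -0.0039 for all genes tested. That median was -0.16 without KO 2 and -0.43 without KO 1, and 32 to 42 members were negative when 1 library was left out. By library the groups overlapped, because the median FPKM of the members was higher in KO 1 (83.5) than in control 1 (71.4). Between libraries of the same group, the member median of log2(FPKM + 1) had a standard deviation of 0.27, close in size to the median fold change. All members share the same 4 libraries, so their number is not a number of replicates. The 32 members not called had a median of -0.15, with 25 negative and 6 positive values. *Egr2* passed the filter on its control mean alone, 6.89 FPKM against 3.92 in KO, so its inclusion favoured a lower value. For any 1 gene, the 2 libraries on each side would limit an exact permutation test to a smallest p of 0.333, so the calls depend on the variance limma borrows from other genes.

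**Figure D2:**
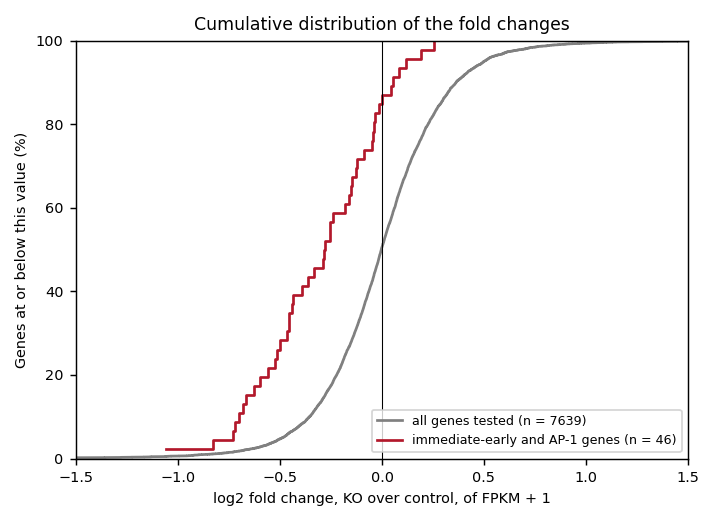
Cumulative percentage of genes against the log2 fold change, KO over control, for the 46 members tested (red) and all 7639 genes tested (grey), of which 24 lie beyond the axis. The red line lies to the left of the grey line, with 84.8% of the members and 50.6% of all genes below 0.

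The AP-1 group holds the Fos, Jun and small Maf proteins and Atf3, leucine zipper factors that bind DNA in pairs. Of 9 tested, 2 were lower in KO and none was higher. *Fosl2* (chromosome 5, 32135801 to 32157842 of GRCm38), a Fos family member without a strong activation domain, had 35.0 and 37.1 FPKM in control and 27.8 and 26.6 FPKM in KO. Its groups did not overlap, and its libraries lay within 1.06-fold of each other in each group (log2 fold change -0.39, SE 0.13, adjusted p = 0.222). *Mafk* (chromosome 5, 139791513 to 139802653), a small Maf protein that lacks an activation domain, had 33.1 and 48.9 FPKM in control and 29.8 and 19.9 FPKM in KO. Both KO values of *Mafk* were below the control values, although control 1 and KO 1 differed by little (log2 fold change -0.70, SE 0.24, adjusted p = 0.227).

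The most studied members of the AP-1 group did not pass the test. *Fos*, the classical immediate-early partner of Jun proteins, had 363 and 482 FPKM in control and 429 and 360.4 FPKM in KO. Its groups overlapped, and its log2 fold change of -0.09 had a 95% interval of -0.46 to 0.29. *Jun* had 80.0 and 139 FPKM in control and 83.7 and 54.9 FPKM in KO, and *Junb*, the most abundant AP-1 transcript here, had 1207 and 2772 FPKM in control and 1790.25 and 813 FPKM in KO. In both genes control 2 was the highest and KO 2 the lowest library, with the other libraries between them. The log2 fold change was -0.63 for *Jun* (95% interval -1.28 to 0.03) and -0.60 for *Junb* (95% interval -1.64 to 0.44). *Fosb*, *Jund* and *Maff* had log2 fold changes of -0.45, -0.04 and -0.25. *Atf3*, a stress-induced factor of the same superfamily, was one of the 2 tested members with both KO libraries above control, at 70.7 and 71.8 FPKM in control and 90.2 and 80.8 FPKM in KO (log2 fold change 0.26, SE 0.12, adjusted p = 0.343). *Junb* shares 351 bp with *Prdx2* on the opposite strand, whose FPKM reached at most 142, and without knowledge of the library's strand the reads of the overlap cannot be told apart.

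**Figure D3:**
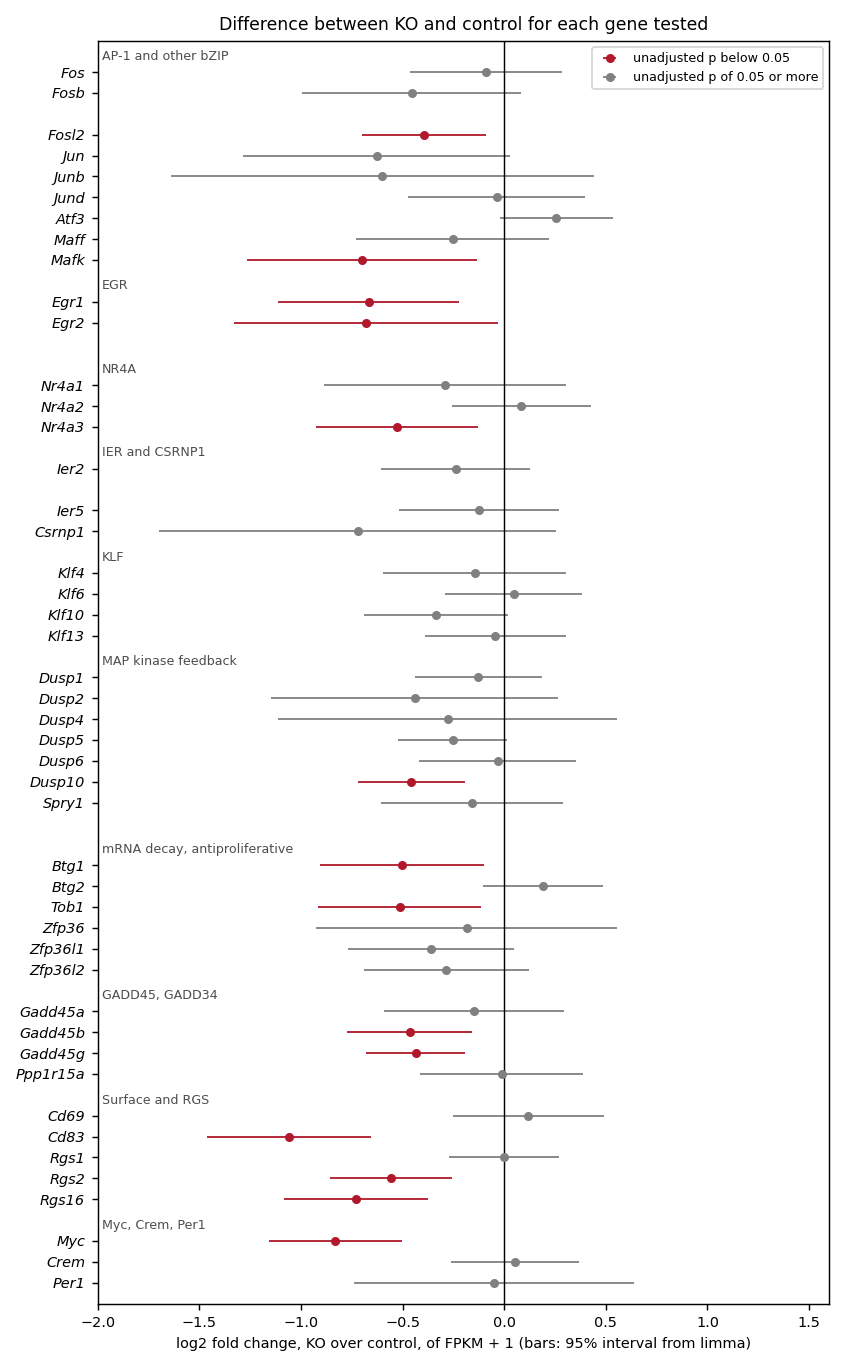
Log2 fold change (KO over control) of each member tested, by family, with the 95% interval from limma as a bar. The 14 genes with an unadjusted p below 0.05 are red, all to the left of 0, from -1.06 for *Cd83* to -0.39 for *Fosl2*.

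The EGR zinc finger factors couple antigen receptor strength to later gene expression, and Egr2 and Egr3 restrain T cell activation. Both EGR genes tested were lower in KO. *Egr1* had 56.8 and 70.9 FPKM in control and 46.9 and 33.4 FPKM in KO. The lower control library was above the higher KO library, and KO reached 62.9% of the control mean (log2 fold change -0.67, SE 0.19, adjusted p = 0.170). *Egr2* (chromosome 10, 67535475 to 67542188) was low, with 8.18 and 5.60 FPKM in control and 4.75 and 3.10 FPKM in KO. Its groups were separated by less than 1 FPKM (log2 fold change -0.68, SE 0.28, adjusted p = 0.292). *Egr3* was below 1 FPKM in every library. *Egr2* is the only one of the lower members with a promoter entry whose promoter held a CArG box, the site of SRF. The stretch before 1 of its 5 RefSeq starts is shown for this box, in GRCm38.p6 at chr10:67537619-67537868 on the plus strand, an intron of longer *Egr2* transcripts. Capitals mark the CArG box and the letters TGACG or their reverse complement.
Egr2: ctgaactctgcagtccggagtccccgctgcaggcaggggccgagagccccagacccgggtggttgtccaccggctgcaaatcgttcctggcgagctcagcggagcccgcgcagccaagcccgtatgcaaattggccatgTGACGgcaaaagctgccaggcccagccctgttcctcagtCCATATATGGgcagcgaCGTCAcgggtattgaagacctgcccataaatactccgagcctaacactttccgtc

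The 3 NR4A orphan nuclear receptors are induced by antigen receptor signals and have known roles in Treg development and T cell restraint. They differed from each other in level, and only *Nr4a3* was called. The 95% interval of its log2 fold change, -0.92 to -0.13, overlapped those of the others, and differences between the genes were not tested. *Nr4a3* (chromosome 4, 48045153 to 48086447), the least abundant, had 12.4 and 13.3 FPKM in control and 8.67 and 8.56 FPKM in KO. The groups were clearly apart, with libraries within 1.08-fold of each other in each group (log2 fold change -0.53, SE 0.17, adjusted p = 0.216). *Nr4a1*, the most abundant, had 349 and 394 FPKM in control and 411 and 224 FPKM in KO. Its KO libraries lay on both sides of the controls, and the interval of its log2 fold change of -0.29 ran from -0.88 to 0.30. *Nr4a2* had 26.1 to 31.0 FPKM in the 4 libraries with overlapping groups (log2 fold change 0.08, 95% interval -0.26 to 0.43).

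The promoters of the NR4A genes shared a feature that had no part in the choice of the list. The letters TGACG, the core of the site that CREB and ATF factors bind, were counted on both strands in the 300 bases around each RefSeq start, 250 before and 50 after it. Of the 36 members tested that have a promoter entry, 3 held at least 4 copies, and these were *Nr4a1*, *Nr4a2* and *Nr4a3*. That is 8.33% of the members, compared with 0.789% of the 6080 genes tested with an entry, or 48 genes. The cutoff of 4 copies was not set in advance and is the number that each of these 3 genes holds, so the contrast is a description only. The 3 stretches are shown because their copies lie at different spacings. Only 1 of the 3 genes was called lower in KO, and a link between spacing and fold change was not tested. They come from RefSeq on GRCm38.p6, at chr15:101266596-101266845 (plus strand), chr2:57124004-57124253 (minus strand) and chr4:48045055-48045152 (plus strand). The last is the 98 bases before the first annotated exon of *Nr4a3* and holds 3 of its 4 copies. Capitals mark TGACG, its reverse complement CGTCA and, in *Nr4a2*, a TATAAA on the other strand.
Nr4a1: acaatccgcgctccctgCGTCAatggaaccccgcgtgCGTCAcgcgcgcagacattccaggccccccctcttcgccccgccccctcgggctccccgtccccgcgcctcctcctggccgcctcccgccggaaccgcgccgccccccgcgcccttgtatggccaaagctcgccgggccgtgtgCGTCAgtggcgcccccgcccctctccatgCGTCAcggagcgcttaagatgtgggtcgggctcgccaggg
Nr4a2: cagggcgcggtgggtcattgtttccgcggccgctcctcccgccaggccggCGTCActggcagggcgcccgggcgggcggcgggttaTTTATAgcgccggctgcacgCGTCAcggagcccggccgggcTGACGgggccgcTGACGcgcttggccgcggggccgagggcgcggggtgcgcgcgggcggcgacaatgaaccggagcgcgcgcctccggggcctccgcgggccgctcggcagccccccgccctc
Nr4a3: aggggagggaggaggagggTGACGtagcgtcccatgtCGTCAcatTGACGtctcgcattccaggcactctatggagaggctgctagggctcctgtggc

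Of the IER and CSRNP1 group, none of the 3 genes tested passed. *Ier2*, a small nuclear protein induced by growth factors, had 364 and 432 FPKM in control and 383 and 294 FPKM in KO, with overlapping groups (log2 fold change -0.24, 95% interval -0.60 to 0.13). *Csrnp1*, a nuclear factor of the same early wave, had 117 and 268 FPKM in control and 151 and 75.7 FPKM in KO. It had one of the widest spreads within the groups, and its log2 fold change of -0.72 had an interval from -1.70 to 0.25. *Csrnp1* lies on chromosome 9, 9.35 Mb from *Setd2*. The 4 KLF genes, zinc finger factors that include regulators of T cell quiescence and residence, did not pass either. *Klf6*, the most abundant of them, had 503 and 580.1 FPKM in control and 626 and 497 FPKM in KO, and its KO libraries lay on both sides of the controls (log2 fold change 0.05, 95% interval -0.29 to 0.38). *Klf10*, which is induced by TGF-β, was the only KLF gene with both KO libraries below control (log2 fold change -0.34, 95% interval -0.69 to 0.02).

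The DUSP phosphatases remove phosphate from ERK, JNK and p38, and Sprouty proteins act upstream of ERK. Of 7 tested, only *Dusp10* was lower in KO, and none was higher. *Dusp10* (chromosome 1, 184013302 to 184075636), a phosphatase of JNK and p38, had 244 and 249.6 FPKM in control and 190.5 and 169 FPKM in KO. The groups were well separated, and KO reached 72.9% of the control mean (log2 fold change -0.46, SE 0.11, adjusted p = 0.125). *Dusp1*, the most abundant phosphatase of the list, had 1977 FPKM in both control libraries and 2022 and 1621 FPKM in KO. The identical control values mark an equal rank in the common distribution and not a measured equality. The interval of the log2 fold change of *Dusp1*, -0.13, ran from -0.44 to 0.19. *Dusp5*, a nuclear phosphatase of ERK, and *Spry1* were below control in both KO libraries without passing (log2 fold changes -0.25 and -0.16), and *Dusp2*, *Dusp4* and *Dusp6* overlapped. *Dusp1* shares 640 bp with *Ergic1* on the opposite strand, whose FPKM reached at most 68.3.

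Among the antiproliferative BTG and TOB genes and the mRNA decay factors of the ZFP36 family, 2 of 6 were lower in KO and none was higher. *Btg1* (chromosome 10, 96617006 to 96622809), which maintains T cell quiescence through mRNA deadenylation, had 878 and 672 FPKM in control and 477 and 615 FPKM in KO. Its higher KO library was close to the lower control library (log2 fold change -0.50, SE 0.17, adjusted p = 0.225). *Tob1* (chromosome 11, 94211454 to 94215495), a relative that restrains T cell proliferation, had 45.9 and 52.5 FPKM in control and 39.5 and 29.3 FPKM in KO. Both KO values of *Tob1* were below control (log2 fold change -0.52, SE 0.17, adjusted p = 0.222). *Btg2*, of the same family as *Btg1*, was the other tested member with both KO libraries above control, and its log2 fold change of 0.19 had a 95% interval of -0.11 to 0.49. *Zfp36*, *Zfp36l1* and *Zfp36l2*, which bind AU-rich elements, had log2 fold changes of -0.18, -0.36 and -0.28, and none passed.

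Of the GADD45 stress sensors and Ppp1r15a (GADD34), 2 of 4 were lower in KO. *Gadd45b* (chromosome 10, 80930073 to 80932204), an activator of the p38 and JNK pathways, had 436 and 542 FPKM in control and 363 and 341 FPKM in KO. Its groups did not overlap (log2 fold change -0.47, SE 0.13, adjusted p = 0.168). *Gadd45g* (chromosome 13, 51846678 to 51848468), which shares this role, had 269 and 271 FPKM in control and 194 and 205 FPKM in KO. It had the smallest standard error among the 46 members, and KO reached 73.9% of the control mean (log2 fold change -0.44, SE 0.10, adjusted p = 0.119). *Gadd45a* had a log2 fold change of -0.15 with overlapping groups. *Ppp1r15a*, which restores translation after stress, had 1406 and 1457 FPKM in control and 1701 and 1183 FPKM in KO, so that its KO libraries lay on both sides of the controls (log2 fold change -0.01, 95% interval -0.42 to 0.39). The stretches upstream of *Gadd45b* and *Gadd45g* are shown because these were the only lower members with an entry that held both an E-box and a TATA match. They come from RefSeq on GRCm38.p6, at chr10:80929841-80930072 and chr13:51846425-51846674, both on the plus strand, and capitals mark the E-box CACGTG and the letters TATAAA.
Gadd45b: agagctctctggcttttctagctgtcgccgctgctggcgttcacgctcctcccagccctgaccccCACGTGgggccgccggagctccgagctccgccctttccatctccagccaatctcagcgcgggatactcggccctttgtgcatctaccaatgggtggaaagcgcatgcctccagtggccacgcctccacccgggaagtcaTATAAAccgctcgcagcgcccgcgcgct
Gadd45g: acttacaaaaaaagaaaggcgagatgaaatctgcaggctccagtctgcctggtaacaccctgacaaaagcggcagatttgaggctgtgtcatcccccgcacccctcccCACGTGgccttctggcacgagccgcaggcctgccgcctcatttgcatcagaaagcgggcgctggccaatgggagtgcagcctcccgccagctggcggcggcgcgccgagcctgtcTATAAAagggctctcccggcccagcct

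The surface and RGS genes held the largest fold change of the list. *Cd83* (chromosome 13, 43784775 to 43803132), a membrane glycoprotein of activated lymphocytes that stabilizes MHC class II and has been linked to Treg function, had 712 and 512 FPKM in control and 315 and 265 FPKM in KO. Both KO libraries lay far below both controls, and KO reached 47.4% of the control mean (log2 fold change -1.06, SE 0.17, 95% interval -1.46 to -0.66, adjusted p = 0.0565). *Rgs16* (chromosome 1, 153740349 to 153745468), a regulator of chemokine receptor signaling, had 37.8 and 45.3 FPKM in control and 26.2 and 23.0 FPKM in KO. Its groups did not overlap (log2 fold change -0.73, SE 0.15, adjusted p = 0.0865). *Rgs2* (chromosome 1, 143999338 to 144004161), which acts on Gq signaling, had 557 and 565 FPKM in control and 422 and 343 FPKM in KO, again without overlap (log2 fold change -0.56, SE 0.13, adjusted p = 0.110). *Rgs1*, which lies near *Rgs2* on chromosome 1, held the same pair of values in control and KO (95% interval of the log2 fold change -0.27 to 0.27). In libraries with a common distribution, identical values mark an equal rank, so the fold change of *Rgs1* does not show equal expression. *Cd69*, an activation marker that retains T cells in tissue, had 1274 and 1229.7 FPKM in control and 1159 and 1593 FPKM in KO. Its KO libraries lay on both sides of the controls (log2 fold change 0.12, 95% interval -0.25 to 0.49).

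*Myc*, which drives growth and metabolism after T cell activation, was lower in KO. *Myc* (chromosome 15, 61985391 to 61990374) had 63.4 and 77.0 FPKM in control and 39.9 and 37.8 FPKM in KO. Its groups were far apart, and KO reached 55.4% of the control mean (log2 fold change -0.83, SE 0.14, 95% interval -1.16 to -0.50, adjusted p = 0.0612). *Crem*, a cAMP-responsive factor that includes repressor isoforms, had 2594 and 2962 FPKM in control and 2649 and 3121 FPKM in KO with overlapping groups (log2 fold change 0.05, 95% interval -0.26 to 0.37). *Per1*, a clock gene induced by cAMP and glucocorticoids, overlapped as well (log2 fold change -0.05, 95% interval -0.74 to 0.64).

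Libraries of the same group differed from each other in these genes. Control 2 was above control 1 and, at the same time, KO 1 above KO 2 in 27 of the 46 members, or 58.7%, compared with 30.7% of all genes tested. The direction of these contrasts was not set in advance. The pattern was not particular to the members, since 8 of 8 NF-κB feedback genes showed it, while 0 of 12 heat shock genes did. *Junb* was 2.30-fold higher in control 2 than in control 1 and 2.20-fold higher in KO 1 than in KO 2. For *Csrnp1* these folds were 2.29 and 2.00, for *Dusp4* 1.97 and 1.83, for *Zfp36* 1.97 and 1.52, and for *Jun* 1.73 and 1.52. *Junb*, *Csrnp1*, *Dusp4* and *Zfp36* had the 4 widest intervals of the fold change among the 46. The intervals are computed from these same differences, so their width is not a separate observation. *Cd83* and *Btg1* went the other way between the controls, with control 2 at 0.72 and 0.77 times control 1.

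**Figure D4:**
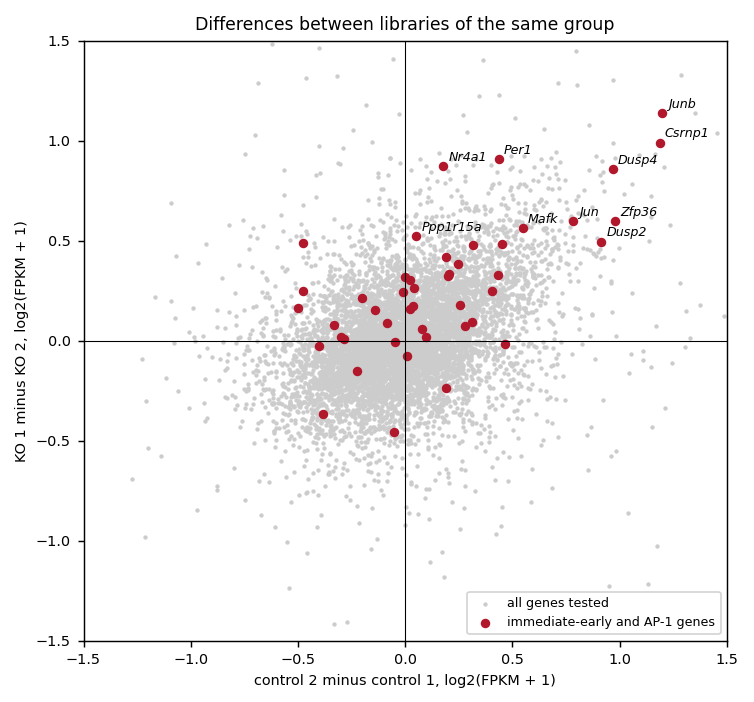
Difference between the 2 control libraries (horizontal, control 2 minus control 1) against that between the 2 KO libraries (vertical, KO 1 minus KO 2) in log2(FPKM + 1), for the members tested (red) and all genes tested (grey), of which 25 lie beyond the axes. *Junb*, *Csrnp1*, *Dusp4*, *Zfp36* and *Jun* lie at the upper right, high in control 2 and in KO 1.

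The comparison was repeated with 1 library left out at a time. Such a fit sets 1 library against 2, so the lone library is assumed to vary like those of the other group, and a call can be lost through the smaller number of samples alone. *Cd83*, *Myc*, *Rgs16*, *Rgs2*, *Dusp10* and *Gadd45g* kept an unadjusted p below 0.05 in limma whichever library was left out. Without KO 2, only 7 members were called lower. *Egr1* (log2 fold change then -0.43), *Gadd45b* (-0.42), *Mafk* (-0.42), *Tob1* (-0.31), *Nr4a3* (-0.52), *Fosl2* (-0.37) and *Egr2* (-0.44) lost the call. Of these, *Nr4a3* and *Fosl2* lost it in 3 of the 4 fits with little change of the fold, -0.48 to -0.58 and -0.35 to -0.43. Without control 2 the count was 10, with the calls of *Mafk* (-0.43), *Tob1* (-0.42), *Nr4a3* (-0.48) and *Fosl2* (-0.35) lost, and *Cd83* then passed the Benjamini-Hochberg method (adjusted p = 0.0109). Without KO 1 it was 19, with *Btg1* (log2 fold change then -0.32), *Nr4a3* (-0.53) and *Fosl2* (-0.42) lost and *Nr4a1* (-0.73), *Jun* (-0.93) and *Junb* (-1.17) gained among others. Without control 1, *Btg1* (log2 fold change then -0.31) and *Egr2* (-0.44) lost the call, and *Jun* (-1.02), *Junb* (-1.20) and *Csrnp1* (-1.31) gained it among others. Other omissions weakened *Jun*, *Junb* and *Csrnp1*. Their log2 fold changes were -0.24, -0.0 and -0.13 without control 2, and -0.33, -0.03 and -0.23 without KO 2. The differences of *Junb* and *Csrnp1* thus rested largely on control 2 and KO 2. No member was called higher in any of these fits.

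The genes that carry the signals to these promoters were compared as lists, beside the 7.57% of all genes tested that were called lower and the 8.61% called higher. Of 13 genes of the ERK, SRF and CREB list tested, 2 were lower and 1 higher in KO. The lower genes were *Map2k1*, the kinase that activates ERK (log2 fold change -0.37), and *Elk4*, a partner of SRF (-0.60), and the higher gene was *Rps6ka1*, a kinase downstream of ERK (0.41). The median of this list was -0.06. In the JNK and p38 list, *Map2k3*, which activates p38, was lower (-0.44) among 9 tested. The list of other bZIP factors had 2 of 9 lower, *Atf1* (-0.34) and *Atf4* (-0.41). Of 8 calcineurin and NFAT genes, only *Ppp3ca*, a catalytic subunit of calcineurin, was called, and it was higher (0.49). A block on the replicate number was run as an alternative only, since the numbers were not taken to pair the libraries. It lowered the calls over all genes tested from 578 to 377 lower and from 658 to 419 higher. With the replicate number as a block, *Map2k1*, *Rps6ka1*, *Atf1* and *Ppp3ca* were no longer called, and without control 2 only *Elk4* was.

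Feedback genes of NF-κB and heat shock genes were also compared, as inducible genes outside the list, beside the same 7.57% called lower and 50.6% negative among all genes tested. Of 8 NF-κB genes, 3 were lower in KO and none higher. These were *Tnfaip3*, which encodes the inhibitor A20 (936 and 1128 FPKM in control, 838 and 664 FPKM in KO, log2 fold change -0.46), the subunit gene *Rel* (-0.41) and *Nfkbid* (-0.40). Their count fell to 2 with all gene types, no trend or the replicate block, to 1 (*Rel*) with no filter or without control 2, and to 0 without KO 2. Of 12 heat shock genes, 3 were lower and none higher, and all 12 log2 fold changes were negative with a median of -0.30. The lower genes were *Hspb1* (49.0 and 31.4 FPKM in control, 17.2 and 19.3 FPKM in KO, -1.07), *Hsp90aa1* (-0.42) and *Hspd1* (-0.33). *Hspd1* lost its call with no filter, all gene types, no trend and the replicate block, and the count of lower genes ran from 2 to 8 when 1 library was left out, with 8 without control 2. Negative values thus prevailed in the heat shock list as in the activation genes, although without control 1 only 9 of the 12 heat shock genes were negative. Between the controls the lists differed. The median of control 2 minus control 1 in log2(FPKM + 1) was -0.29 for the heat shock genes and 0.09 for the members. The part of cell stress in either list was not tested. The smallest adjusted p in these lists was 0.0821, for *Hspb1*.

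The members were short genes. Their median span was 5564 bp with 4 exon blocks, compared with 22230 bp and 10 blocks for all genes tested, and 30 of the 46 lay in the shortest of 4 equal bins of span. In that bin 10.7% of all genes tested were called lower, compared with 5.6% in the longest bin. Calls in the shortest bin went both ways, with 205 genes lower and 206 higher and a median log2 fold change of -0.003. Of its 30 members, 9 were lower. The members were also abundant, with 27 of the 46 in the highest of 4 equal bins of FPKM. There 10.0% of all genes tested and 6 of the 27 members were lower. Among all genes of this bin, 191 were lower and 219 higher, with a median log2 fold change of -0.003.

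Promoter letters were compared between the members and all genes tested. RefSeq promoters on GRCm38.p6 were given for 38 of the 50 members, including 36 of those tested, but not for *Cd69*, *Cd83*, *Crem*, *Dusp4*, *Egr1*, *Egr3*, *Fosl1*, *Ier2*, *Klf10*, *Myc*, *Rgs1* and *Zfp36l2*. Each motif was searched on both strands of 300 bases. The full CRE TGACGTCA was found in 11.1% of the members and 4.06% of all genes tested, and its shorter core TGACG, which every CRE contains, in 61.1% and 39.8%. The CArG box was found in 8.33% and 1.6%, the E-box CACGTG in 27.8% and 12.5%, and TATAAA in 25.0% and 8.32%. The AP-1 site TGANTCA was found in 5.56% and 5.86%, the EGR site GCGTGGGCG in 2.78% and 1.56%, and the NR4A site AAAGGTCA in 0 of 36 members and 1.13%. Genes with the full CRE were *Btg2*, *Dusp1*, *Maff* and *Ppp1r15a*, none of them called, and those with a CArG box were *Dusp5*, *Egr2* and *Zfp36*. Of the 11 lower members with an entry, 4 held an E-box, 4 TATAAA, 6 TGACG and none the full CRE. A gene was counted if the window of any of its RefSeq starts held the motif, so genes with several starts, such as *Egr2* with 5, had more chances. These matches describe letters, and binding was not examined.

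**Figure D5:**
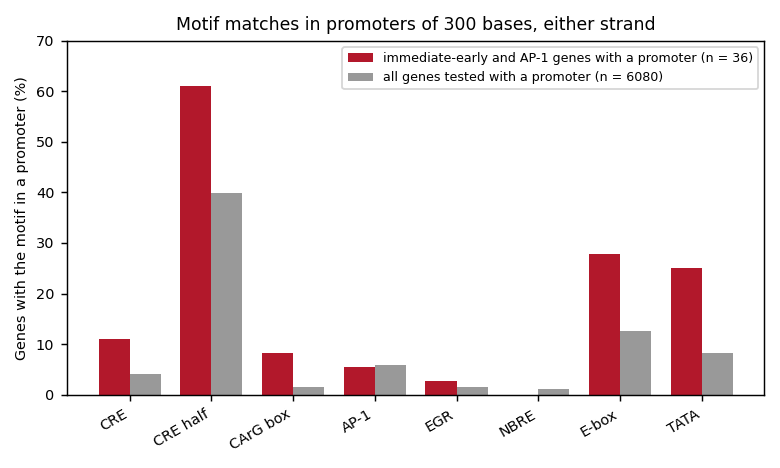
Percentage of genes with each motif in a promoter of 300 bases, for the 36 members tested that have a promoter entry (red) and for all 6080 genes tested that have one (grey). The bars of the members are higher for the CRE, its core, the CArG box, the E-box and TATA, and nearly level for the AP-1 site.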

How the data were processed

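Poly(A) RNA of sorted LI Treg cells was sequenced in paired reads of 150 bp. The authors mapped reads to GRCm38 with STAR 2.5 and quantified genes with RSEM 1.2, and they deposited FPKM per gene. The strand setting and the step that gave the libraries a common distribution are not given in the sources used here. Because FPKM keeps no depth, counting error is unknown and no count test was used. The methods give biological replicates pooled from littermates.

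Genes tested were protein-coding (GENCODE M21, which held 53274 of the identifiers) whose mean FPKM in control or in KO exceeded 5. KO was compared with control on log2(FPKM + 1) by limma 3.58.1 (R 4.3.3), with no covariate and with an empirical Bayes trend, and adjusted p-values are Benjamini-Hochberg over the 7639 genes. Fold changes are on this scale, which understates those of low genes. Called means an unadjusted, two-sided p below 0.05. The fit was also run on simulated data in which 200 genes were shifted by a log2 fold change of 1. All genes there had the same variance and independent noise, unlike these data, so that run is no check of the calls. blastn 2.17.0 was used to look for similar transcripts, and Python 3.11.15 for tables and figures.

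The members and all lists were chosen with earlier results of these data known. Values per library are given for called members, for the most abundant member of each family, and for *Myc*, *Fos*, *Jun*, *Egr1*, *Nr4a1* and *Cd69*. *Atf3*, *Btg2*, *Csrnp1*, *Dusp4*, *Zfp36*, *Klf10*, *Tnfaip3* and *Hspb1* were singled out after their values were seen. Alternatives were other pseudocounts (0.1, 5), other filters (mean FPKM of 1, none), every gene type, 3 scalings, no trend, a replicate block and each library left out.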

Additional observations from a re-analysis of the deposited data

How the results depend on the processing

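Pseudocounts of 0.1 and 5, a filter at a mean FPKM of 1 and no trend each left 14 members lower and none higher. Rescaling to a total of 1000000, median-centring and quantile normalization gave the same counts. These scalings could change little, because the libraries already shared a common distribution and their summed FPKM differed by at most 0.0098%. Their result is therefore not a separate check of the calls. Without a filter on FPKM, 12 members were lower and 1 higher (*Atf3*), and 1170 of all genes tested were higher. With all gene types the count was 13. Under a replicate block, the count was again 13, 1 passed an adjusted p of 0.05 (*Cd83*), and 377 genes were lower and 419 higher. *Fosl2* was the member whose call the block removed. Same-numbered libraries deviated with a correlation of -0.305, so the numbers were not taken to pair them. A crossed pairing chosen after seeing the data gave 983 lower and 1008 higher genes, with 24 members lower, 1 higher and 14 past an adjusted p of 0.05. Leaving out each library gave 7 to 21 members lower, 0 to 1 past an adjusted p of 0.05, 312 to 604 genes lower and 332 to 643 higher. The log2 fold change then changed sign for *Fos* (-0.29 to 0.11), *Jund* (-0.19 to 0.11), *Nr4a1* (-0.73 to 0.15), *Nr4a2* (-0.036 to 0.21), *Klf4* (-0.31 to 0.020), *Klf6* (-0.12 to 0.21), *Klf13* (-0.25 to 0.16), *Dusp1* (-0.29 to 0.032), *Dusp2* (-0.90 to 0.016), *Dusp4* (-0.76 to 0.21), *Dusp6* (-0.27 to 0.20), *Zfp36* (-0.67 to 0.30), *Gadd45a* (-0.40 to 0.10), *Ppp1r15a* (-0.27 to 0.25), *Cd69* (-0.11 to 0.35), *Crem* (-0.066 to 0.17) and *Per1* (-0.50 to 0.40). The cause of these changes was not tested beyond the smaller number of samples.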
